A study of Mus musculus with 8 samples.

Results

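The lysine demethylase genes Kdm1a, Kdm1b, Kdm2a, Kdm2b, Kdm3a, Kdm4a, Kdm4b, Kdm4c, Kdm5b and Kdm6b were followed through maturation of the mouse oocyte and in oocytes given wild-type or mutant BTG4. They were taken by symbol, and all 10 were present among the 15962 genes measured in all 8 libraries. The list was chosen by the measured levels of Kdm4a in the injected oocytes, among the largest differences with mutant relative to wild-type BTG4. That comparison is therefore given as a description, with no p-value printed and nothing inferred from it. Genes said to be past the limits in it also had an adjusted p under 0.05, as the limits require. Maturation was tested, and its GV and MII libraries took no part in the comparison that chose Kdm4a. The test is still not independent of that choice. Between MII oocytes with wild-type BTG4 and uninjected MII oocytes, 0 of 13968 genes passed the limits used for calls in either direction. The list was also made with earlier results of these data known. The p-values for maturation rest on a spread estimated over all 8 libraries, those of the injected oocytes included.

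Oocytes came from outbred ICR female mice at 6 weeks of age. Of 4 groups with 2 libraries each, GV oocytes (prophase of the first meiosis, with an intact germinal vesicle) and MII oocytes (arrested at metaphase of the second meiosis) were uninjected and from in vitro culture. The other two groups were MII oocytes injected at the fully grown stage with cRNA for Myc-tagged BTG4, an adaptor of the deadenylase complex that removes maternal mRNA. Btg4wt oocytes received the wild-type protein and Btg4tm oocytes a mutant with 3 adjacent residues, a threonine and a pair of serines, changed to alanine. The methods name no deletion of the oocytes' own Btg4, and the study notes that injected BTG4 may lower the endogenous protein. Each library held 15 oocytes without zona pellucida, and no source says that the libraries of a group came from separate animals, so p-values measure only the spread between these samples.

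Histone lysine demethylases remove methyl groups from histone tails. KDM1 enzymes use a flavin cofactor, whereas the other families carry a JmjC domain and use iron and 2-oxoglutarate. In growing oocytes, KDM1B clears methylation of histone H3 lysine 4 where maternal DNA methylation is laid down, and KDM4A keeps lysine 9 trimethylation out of the broad lysine 4 trimethylation domains. Fully grown oocytes no longer transcribe, and maturation runs on stored mRNA that is polyadenylated, translated or removed.

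Levels are TPM (the share of each transcript in a library, per transcript length) divided by 1 factor per library between 0.948 and 1.11. TPM are shares of a library, reverse transcription began from oligo(dT), and no spike-in is named, so more RNA of a gene, a larger share of a smaller pool and a longer poly(A) tail cannot be told apart. The depth of the libraries is unknown from TPM. Replicate libraries correlated at 0.982 to 0.987 on the log2 scale. All 10 oocyte markers were present, at a summed level of 24976 to 27115 in GV, 17735 to 19058 in MII, 18229 to 19387 in Btg4wt and 26185 to 27299 in Btg4tm. Of 13 cumulus and granulosa markers, 6 were listed, summing to 36.4 to 36.5 in GV, 46.9 to 50.8 in MII, 47.2 to 48.1 in Btg4wt and 36.7 to 41.6 in Btg4tm. Has2, Ptx3, Tnfaip6, Amh, Fshr, Foxl2 and Cyp11a1 were not among the genes listed in all libraries, and neither was any of 4 blood cell markers; the part of the listed markers in the results was not tested. Btg4 itself measured 2650 and 2794 in GV, 5792 and 6002 in MII, 5178 and 5510 in Btg4wt and 3725 and 4068 in Btg4tm, so its level did not mark the injected libraries.

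Kdm6b and Kdm1b were the most abundant of the 10 genes, and their order exchanged during maturation. In GV oocytes Kdm1b led at 70.2 ± 1.78 (SD, n = 2), ahead of Kdm6b at 34.0 ± 4.96. In MII oocytes Kdm6b led at 150.1 ± 9.10, ahead of Kdm1b at 86.0 ± 11.2. Kdm2b, Kdm4a and Kdm1a formed a middle rank, in GV at 20.3 ± 4.58, 13.9 ± 4.67 and 13.7 ± 3.61, where neighbours overlapped between libraries. Kdm2a, Kdm3a, Kdm4b, Kdm4c and Kdm5b had group means between 0.419 and 3.91, so their ratios are the least precise. Kdm4c did not reach the filter of 1 TPM in at least 2 libraries and was left out of the fit, which therefore covered 9 of the 10 genes.

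**Figure D1:**
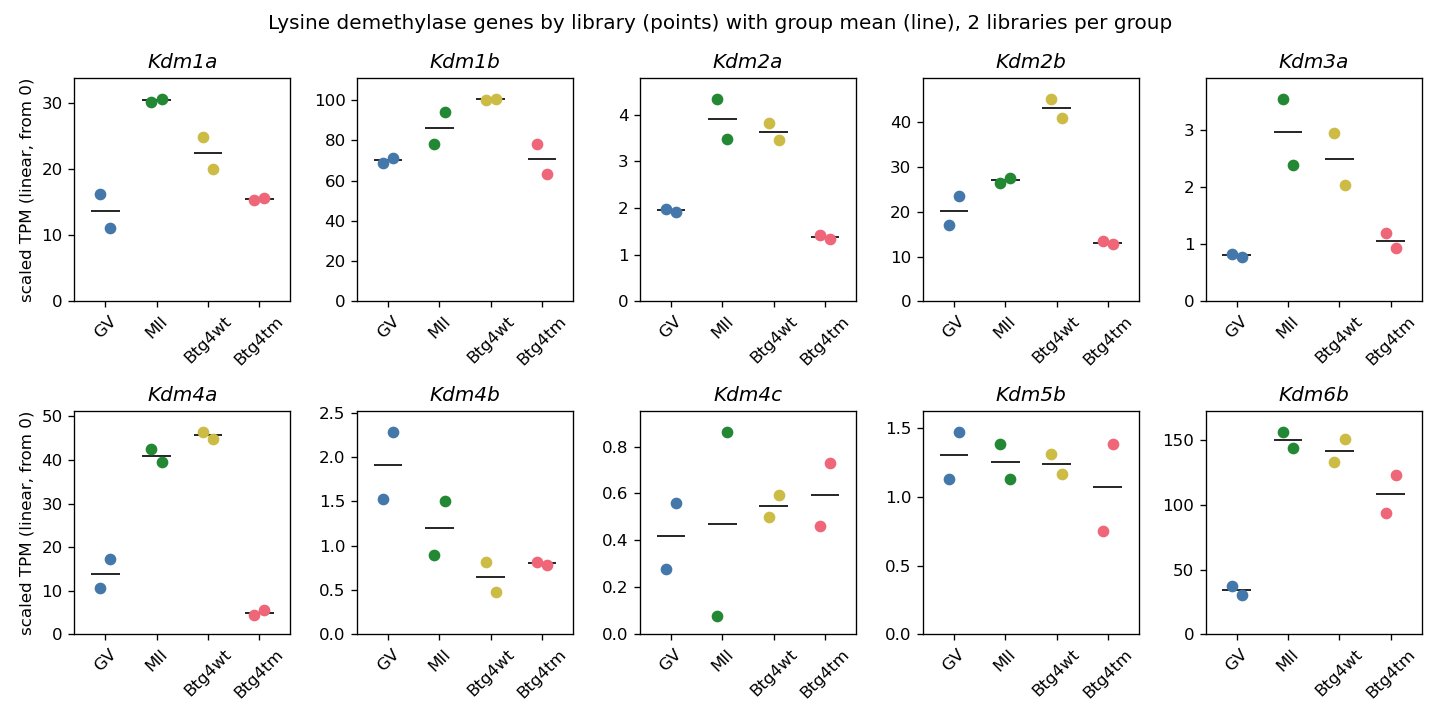
Scaled TPM (linear axes from 0, different for each gene) of the 10 genes in the 8 libraries, with points for libraries and lines for group means. Kdm4a has its 2 Btg4tm points below both GV points, whereas Kdm6b keeps its Btg4tm points above both GV points, and the Kdm4c and Kdm5b points of the 4 groups overlap.

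From GV to MII, 4 of the 9 genes tested rose and none fell. Kdm6b, Kdm4a, Kdm1a and Kdm3a passed an adjusted p under 0.05 with a log2 change over 1. This rule was passed by 12.5% of the 13968 genes tested in the higher direction and by 24.0% in the lower direction. Kdm3a was under 1 TPM in both GV libraries and met the filter only through MII and injected libraries. Scaled to the mitochondrially encoded genes instead, 0 of the 9 were called higher and 4 lower, because that scaling moved the median of all genes by −1.74. Both MII libraries lay above both GV libraries for 7 of the 9 genes and below for Kdm4b, against 41.1% and 41.6% of all genes. The median log2 change of the 9 was 0.73, while that of all genes was −0.00. With transcript length and GC trends removed, the median of the 9 was 0.04 and 3 were called higher. After quantile normalization 5 were called higher. With no minimum size, Kdm2a joined the higher calls, which made 5, and 29.8% of all genes were then called higher and 32.8% lower.

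Kdm4a encodes a demethylase of trimethylated lysines 9 and 36 of histone H3. Its scaled TPM was 10.6 and 17.2 in GV, 42.6 and 39.5 in MII, 46.5 and 44.9 in Btg4wt, and 4.52 and 5.54 in Btg4tm. The lowest MII library was thus above the highest GV library, and the Btg4tm libraries were below all 6 others. From GV to MII, Kdm4a rose by 1.53 ± 0.21 (SE) on the log2 scale, 2.95-fold between group means (limma, adjusted p = 0.00035), and it was called whichever library was left out. The p-value of this rise is not independent of the choice of Kdm4a. Scaled to the mitochondrially encoded genes, the Kdm4a value was −0.59, which lay 1.15 above the median of all genes under that scaling.

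With mutant BTG4, Kdm4a was at 5.03 ± 0.72 (SD, n = 2) against 45.7 ± 1.12 with wild-type BTG4. The difference was −2.96 on the log2 scale, a ratio of means of 0.11. This is the value that chose the list. Of the 6882 genes whose scaled TPM averaged 10 or more, 706 were past the same rule in the lower direction, and Kdm4a held rank 3 of them. The Btg4tm mean was also 0.36 of the GV mean, so the mutant libraries did not sit between GV and MII but under both. The difference remained −1.96 under the scaling to mitochondrially encoded genes and ranged from −3.08 to −2.84 when each Btg4wt or Btg4tm library was left out in turn.

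Kdm4b and Kdm4c, whose products act on the same lysines, had other orders of the groups. Kdm4b measured 1.53 and 2.29 in GV, 0.891 and 1.51 in MII, 0.821 and 0.480 in Btg4wt, and 0.821 and 0.780 in Btg4tm. Its MII libraries were under its GV libraries, but the change of −0.40 ± 0.25 (95% interval −0.98 to 0.17) did not pass the test (adjusted p = 0.19), and Btg4wt and Btg4tm overlapped. Under mitochondrial scaling the Kdm4b change was −1.72 and was called lower (adjusted p = 8.7e-05). Kdm4c lay between 0.077 and 0.863 in all 8 libraries, and its groups overlapped in every comparison. Kdm4d, which is outside the list, averaged 0.772 in GV, 0.919 in MII, 0.626 in Btg4wt and 0.387 in Btg4tm.

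A ratio of TPM within a library does not depend on the scaling. Kdm4a made up 82.1% and 81.6% of the summed TPM of Kdm4a, Kdm4b, Kdm4c and Kdm4d in GV, 96.4% and 91.7% in MII, 96.5% and 95.9% in Btg4wt, and 73.9% and 73.7% in Btg4tm. It was therefore the main KDM4 transcript of every group, including the mutant. The ratio of Kdm4a to Kdm6b was 0.283 and 0.564 in GV, 0.272 and 0.275 in MII, 0.350 and 0.298 in Btg4wt, and 0.0482 and 0.0449 in Btg4tm. The mutant libraries lay below the other 6 in both ratios, which repeat the low Kdm4a values that chose the list and add no separate support. In the ratio to Kdm6b, GV and MII were not separated by more than their spread.

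**Figure D2:**
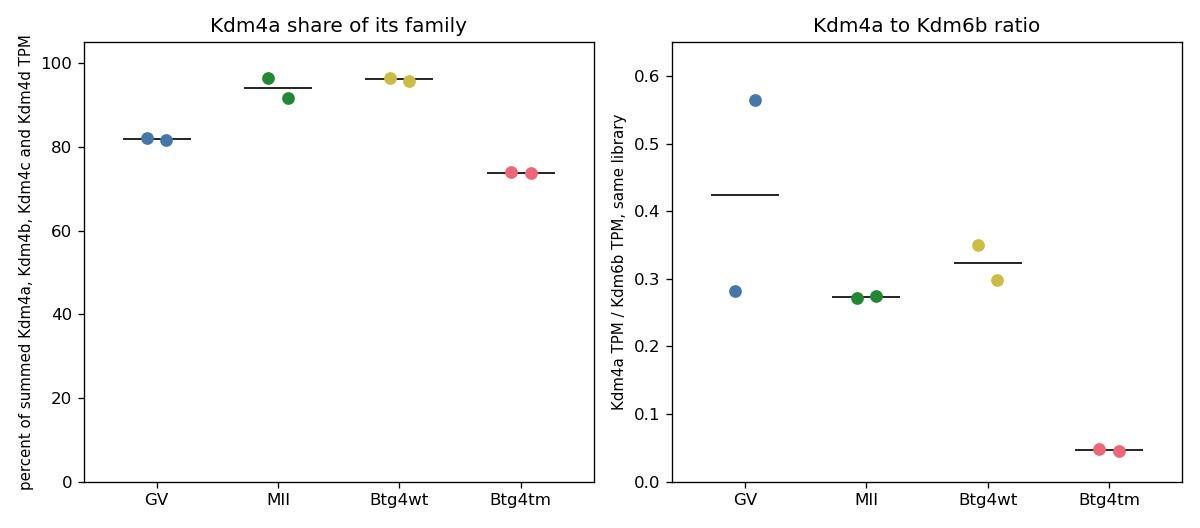
Kdm4a as a percentage of the summed TPM of the 4 KDM4 genes (left) and divided by Kdm6b TPM of the same library (right), with points for the 2 libraries of each group and lines for means. Btg4tm has the lowest values in both panels, at 73.7% to 73.9% and at 0.0449 to 0.0482.

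Kdm6b encodes a demethylase of lysine 27 of histone H3, the mark set by Polycomb repressive complex 2. Its scaled TPM was 37.5 and 30.5 in GV, 156.5 and 143.6 in MII, 132.9 and 150.9 in Btg4wt, and 93.7 and 123.4 in Btg4tm. Every MII-stage library, mutant included, was above both GV libraries. Kdm6b rose by 2.12 ± 0.16 (SE) from GV to MII, 4.42-fold (adjusted p = 1.3e-05), and its value under mitochondrial scaling was −0.07, which was 1.67 above the median of all genes. With mutant BTG4 it was lower by 0.39 on the log2 scale, with a ratio of means of 0.77, a direction that turned under mitochondrial scaling (0.68) and with length and GC trends removed (0.13). Without Btg4tm replicate 1 the difference was −0.20 and without replicate 2 it was −0.59. The Btg4tm mean was 3.20-fold over GV. Kdm4a and Kdm6b, both higher in MII, thus had ratios of 0.11 and 0.77 between mutant and wild-type BTG4.

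The flavin-dependent demethylases act on mono- and dimethylated lysine 4 of histone H3. Kdm1a, whose product works within the CoREST complex, measured 16.2 and 11.1 in GV, 30.3 and 30.7 in MII, 24.9 and 20.1 in Btg4wt, and 15.3 and 15.7 in Btg4tm. Both MII libraries were above the other 6, and the mutant libraries lay within the GV range. Kdm1a rose by 1.13 ± 0.19 in maturation, 2.23-fold (adjusted p = 0.00103). Without GV replicate 2 the change was 0.87, under the size limit, as was the 0.98 of the TPM as deposited, and under mitochondrial scaling it was −0.99. Btg4tm was 0.69 of Btg4wt (−0.50), and Btg4wt was 0.74 of MII with no overlap.

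Kdm1b measured 68.9 and 71.4 in GV, 78.1 and 94.0 in MII, 100.1 and 100.7 in Btg4wt, and 78.4 and 63.0 in Btg4tm. The change from GV to MII was 0.28 ± 0.14 with a 95% interval of −0.03 to 0.60, and it did not pass the test (adjusted p = 0.10), whereas mitochondrial scaling gave −1.90 and a lower call (adjusted p = 1.5e-05). Mutant libraries lay under both wild-type libraries at 0.70 of their mean (−0.51) and averaged 1.01 times GV. With transcript length and GC trends removed, the maturation value turned to −0.54 (adjusted p = 0.0111) and the mutant value to 0.11. Quantile normalization gave 0.49 in maturation (limma, adjusted p = 0.0159), below the size limit. Kdm1b shares 505 exonic bases, 9.19% of its own, with Dek on the opposite strand, which rose by 1.60 in maturation. The counting took no account of strand, and the part of this overlap in the Kdm1b values was not tested.

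KDM2 enzymes act on lysine 36 of histone H3 and bind unmethylated CpG through a zinc finger, and KDM2B brings a variant Polycomb repressive complex 1 to CpG islands. Kdm2b measured 17.1 and 23.5 in GV, 26.4 and 27.6 in MII, 45.3 and 40.9 in Btg4wt, and 13.4 and 12.9 in Btg4tm. The groups followed each other without overlap in the order Btg4tm, GV, MII and Btg4wt. The change from GV to MII was 0.41 ± 0.16 with an adjusted p of 0.0567, so it was not called. Mitochondrial scaling gave −1.71 and a lower call (adjusted p = 3.0e-05), and removal of length and GC trends gave 0.04. The mutant level was 0.31 of the wild-type level (−1.64), rank 131 of the 706 genes among which Kdm4a held rank 3. Kdm2b also had the largest positive difference of the 9 genes between Btg4wt and MII, 1.59-fold or 0.65 on the log2 scale.

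Part of Kdm2b lies under other annotations. It shares 8.74% of its exonic bases with A930024E05Rik, Gm44574 and Rnf34, and 12.5% of the 50-base stretches of its longest coding transcript occur in other genes. Gm44574, chosen after its values were seen, is a processed transcript on the same strand that shares 124 of its 390 exonic bases with Kdm2b. Gm44574 measured 3.76 and 9.16 in GV, 16.6 and 14.9 in MII, 32.0 and 32.3 in Btg4wt, and 2.29 and 3.01 in Btg4tm, the same group order as Kdm2b. Which of both annotations the reads came from was not tested.

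Kdm2a, the close relative, was rare. It measured 1.98 and 1.92 in GV, 4.34 and 3.48 in MII, 3.82 and 3.45 in Btg4wt, and 1.42 and 1.33 in Btg4tm. The group order of low to high values was Btg4tm, GV and then the overlapping Btg4wt and MII. The log2 change in maturation was 0.73 ± 0.20 (adjusted p = 0.0123), below the size limit although the ratio of means was 2.004. Adding 1 TPM shrinks the change of a rare gene, but with 0.1 added instead the change was 0.96, still below the limit. After quantile normalization it was 1.05 (limma, adjusted p = 0.00195), past the limit. The mutant level was 0.38 of the wild-type level (−0.96). Removing length and GC trends left −0.15 in both comparisons.

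Kdm3a, whose product acts on mono- and dimethylated lysine 9, measured 0.837 and 0.774 in GV, 3.55 and 2.39 in MII, 2.95 and 2.04 in Btg4wt, and 1.19 and 0.929 in Btg4tm. Both GV libraries were under 1 TPM, so Kdm3a met the filter only through MII and injected libraries, and its call is no separate support for a rise. Its change in maturation was 1.12 ± 0.24 (adjusted p = 0.00391), with a ratio of means of 3.68, while mitochondrial scaling gave −0.22. Without MII replicate 1 the change was 0.91, and with length and GC trends removed it was 0.37 (adjusted p = 0.22). The mutant libraries were at 0.43 of Btg4wt (−0.75) and above both GV libraries. Kdm5b, a demethylase of di- and trimethylated lysine 4, lay between 0.755 and 1.47 in all libraries. Its change in maturation was −0.03 ± 0.23 with a 95% interval of −0.57 to 0.51 (adjusted p = 0.92), but it was −0.95 with length and GC trends removed (adjusted p = 0.0068) and −1.28 under mitochondrial scaling (adjusted p = 0.00048). Its groups overlapped in every comparison.

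**Figure D3:**
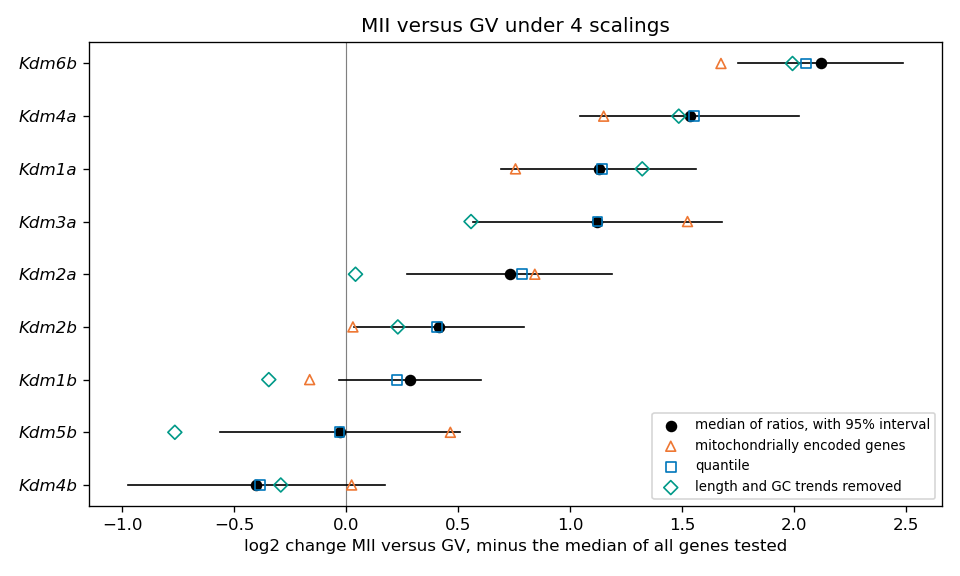
Log2 change from GV to MII of the 9 genes tested, minus the median of all genes, under 4 treatments of the same TPM, with bars for the 95% interval of the main fit. Kdm6b, Kdm4a, Kdm1a, Kdm3a, Kdm2a and Kdm2b lie above the median under all 4, Kdm2a and Kdm2b by as little as 0.04 and 0.03. Without subtracting the median, the mitochondrial scaling gives all 9 a value below 0.

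With mutant BTG4, the size of the differences of the Kdm4a relatives depended on the processing, and for some of them the direction did. Kdm2a, Kdm2b and Kdm3a stayed negative under every alternative, at most −0.15, −0.60 and −0.07. The limits used for calls were exceeded by Kdm4a, as the choice of the list fixed, and by Kdm2b, 2 of the 9 genes, where 7.94% of all genes exceeded them in the lower direction and 18.1% in the higher. Both mutant libraries were below both wild-type libraries for Kdm1a, Kdm1b, Kdm2a, Kdm2b, Kdm3a, Kdm4a and Kdm6b, 7 of the 9, against 36.7% of all genes. No gene of the list was higher without overlap, as 37.6% of all genes were. The median difference of the 9 was −0.51 beside 0.01 for all genes, and the differences ran from −2.96 for Kdm4a to 0.13 for Kdm4b. Under mitochondrial scaling the median of all genes moved to 0.88, Kdm1a, Kdm1b, Kdm5b and Kdm6b turned positive, and all 9 stayed below that median. With length and GC trends removed, Kdm1b (0.11), Kdm4b (0.40), Kdm5b (0.71) and Kdm6b (0.13) were positive, 4 of the 9 lay above the median of all genes and 5 below, and the median of the 9 was −0.15. Nothing about the list is read from these counts, since this comparison chose it.

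**Figure D4:**
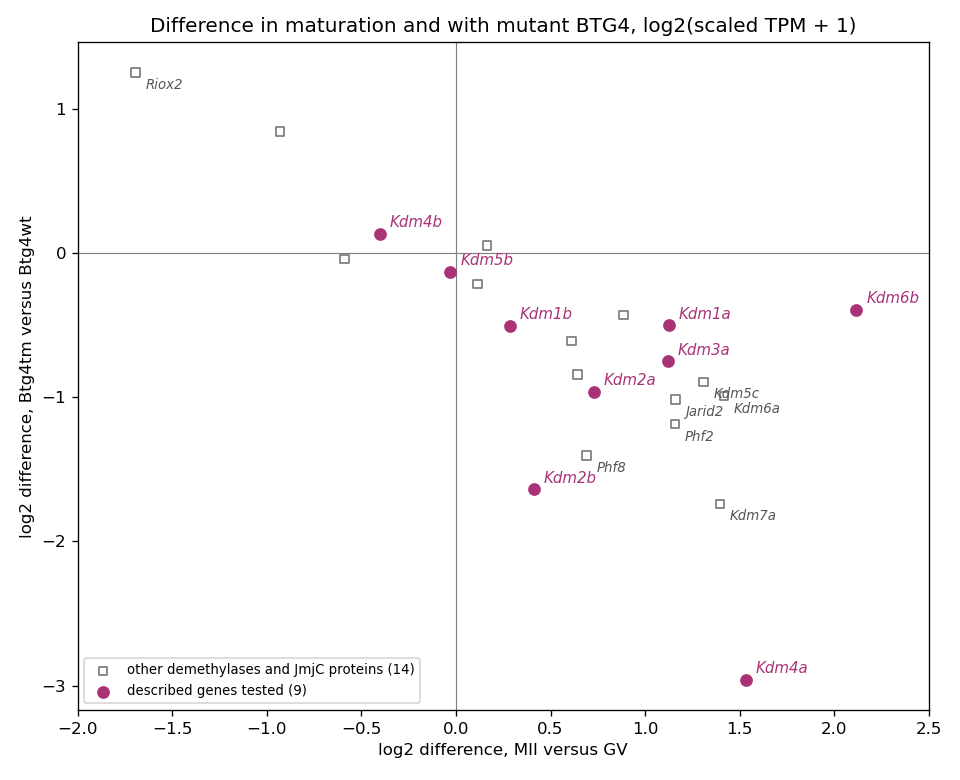
Log2 difference in maturation (horizontal) and with mutant BTG4 (vertical) on the log2(scaled TPM + 1) scale, for the 9 described genes tested (filled) and 14 other demethylases and JmjC proteins (open, named where past the call rule in either comparison). Kdm4a stands lowest at −2.96 and Kdm6b farthest right at 2.12. Horizontal values turn negative for Kdm1a, Kdm1b, Kdm2a, Kdm2b, Kdm3a, Kdm4a and Kdm6b under mitochondrial scaling.

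Relative to GV, the Btg4tm libraries lay below, above or overlapping, depending on the gene. Kdm2a, Kdm2b and Kdm4a were above GV in both MII libraries and below GV in both mutant libraries, 3 of the 9 genes, where 6.26% of all genes had this order. The low mutant values of Kdm4a chose the list, so nothing is read from this count, and the first condition turns under mitochondrial scaling, which gave −0.90 for Kdm2a, −1.71 for Kdm2b and −0.59 for Kdm4a in maturation. Kdm3a and Kdm6b stayed above GV, at 1.32 and 3.20 times its mean. For Kdm3a the values were 1.19 and 0.929 in Btg4tm against 0.837 and 0.774 in GV, near the filter of 1 TPM. The remaining Btg4tm values of Kdm1a, Kdm1b and Kdm5b overlapped those of GV, and Kdm4b was below at 0.42. The share of all genes above or below GV in Btg4tm was not computed, so nothing about the list is read from these orders. Between Btg4wt and MII, no gene of the list passed the call rule, as 0.00% of all genes did in either direction, so nothing about the list is read from it. Kdm1b, Kdm2b and Kdm4a were higher without overlap (24.1% of all genes) and Kdm1a and Kdm4b lower (20.8%), with ratios of means from 0.54 for Kdm4b to 1.59 for Kdm2b.

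Among 14 other demethylases and JmjC proteins tested, 5 rose in maturation and 1 fell (12.5% and 24.0% of all genes), with a median of 0.67 and with directions that, as for the list, are relative to a median that mitochondrial scaling moves. The largest rises were those of Kdm6a, the X-linked relative of Kdm6b, from 22.7 ± 0.027 to 62.7 ± 8.61 (1.42), Kdm7a from 23.4 ± 4.34 to 62.7 ± 3.78 (1.40) and Kdm5c, a relative of Kdm5b, from 8.68 ± 0.79 to 23.0 ± 0.80 (1.31). Riox2, a ribosomal oxygenase, fell from 50.3 ± 2.61 to 14.8 ± 0.81 (−1.70). The adjusted p of these 4 genes lay between 3.3e-05 and 0.00017. Jarid2 and Phf2, outside the naming rule, made up the 5. With mutant BTG4, Kdm7a was at 18.4 against 63.9 (−1.74), and Phf8, Phf2 and Jarid2 were also past the lower limit, at −1.40, −1.19 and −1.02, whereas Riox2 was higher (1.25), beside 7.94% of all genes past the lower limit and 18.1% past the higher.

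The 3′ UTRs were searched for TTTTAT and TTTTAAT, the letters of the cytoplasmic polyadenylation element that CPEB binds in oocyte mRNAs, since the measurement depends on poly(A) tails. In the longest coding transcripts of GENCODE M21 on GRCm38, on the transcript strand, the letters occurred in 9 of the 10 genes, Kdm4b being the exception, and in 62.5% of the 10962 genes tested with an annotated 3′ UTR. Within the last 100 bases they occurred in Kdm1a alone and in 19.6% of those genes. The signal AATAAA or ATTAAA was in the last 40 bases of 6 of the 10 genes and of 77% of all. The match nearest to the annotated end is shown for the 5 most abundant genes, with the motif in capitals and the distance from its first base to that end:
Kdm4a, chr4:118137310-118137339, minus strand, 371 bases from the end: ttgaagggataaTTTTAATgatggaaacag
Kdm6b, chr11:69399226-69399255, minus strand, 736 bases from the end: ttgttttttggtTTTTAATttataacagtc
Kdm1a, chr4:136550544-136550568, minus strand, 13 bases from the end: actttaaaataaTTTTATatgaaaa
Kdm1b, chr13:47085156-47085185, plus strand, 112 bases from the end: tacacttgatgcTTTTAATcataattatga
Kdm2b, chr5:122871164-122871193, minus strand, 517 bases from the end: gcataccagtgtTTTTATtatttagattgc
Kdm4a, Kdm6b and Kdm1b carry the 7-letter form, and the Kdm1b and Kdm2b stretches lie in the bases that overlap Dek and Rnf34. A match is a description of letters and says nothing of binding.

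The 10 genes were long. Their longest coding transcripts had a median of 4920 bases against 2574 for the 13643 genes tested that matched by symbol, and all 10 exceeded that median. Median GC content was 49.96% against 48.7%. Kdm4a lies on chromosome 4 from 118136957 to 118180043 on the minus strand, has 22 exons in its longest coding transcript, shares no exonic base with another annotated gene and no stretch of 50 bases with another gene's transcript. With length and GC trends removed, Kdm4a kept 1.30 in maturation and −2.63 with mutant BTG4, whereas the median of the 9 genes went to 0.04 and −0.15.

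The genes whose log2 level ran most like Kdm4a over the 8 libraries were Supt6 (Pearson r = 0.998), Pik3r1 (0.997), Arih1 (0.996), Sec16a (0.996) and Nap1l4 (0.996), out of 6881 other genes whose mean was 10 or more. Supt6 encodes a histone chaperone of transcribing polymerase and Pik3r1 a regulatory subunit of PI3 kinase. For Kdm6b they were Kdelr2 (0.995), Sub1 (0.994), Resf1 (0.994), Sms (0.994) and Sycp3 (0.994). Pik3r1 measured 19.9 and 26.8 in GV, 55.1 and 55.6 in MII, 59.7 and 59.9 in Btg4wt, and 12.4 and 13.7 in Btg4tm, low in the same libraries as Kdm4a. Kdelr2 measured 107.7 and 84.4 in GV, 495.1 and 506.0 in MII, 410.5 and 445.7 in Btg4wt, and 331.6 and 376.8 in Btg4tm, above GV in every MII-stage library. The 8 points are 4 groups of 2 that share their group means, so these values are descriptions.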

How the data were processed

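Polyadenylated RNA was profiled by Smart-seq2 in 8 libraries, grouped by their titles. The authors trimmed reads with Trim Galore 0.6.10, aligned them to GRCm38 with HISAT2 2.2.0, counted exons without strand at a mapping quality of at least 10 with featureCounts 2.0.6, and deposited TPM per gene. The gene lengths behind the TPM are not given in the sources used here. The label text names 3 samples per group, and 2 were analysed here.

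Genes in all 8 libraries that reached 1 TPM in 2 or more of them were kept, brought to a common level with median-of-ratios factors, and fitted as log2(scaled TPM + 1) with limma 3.58.1 in R 4.3.3 (eBayes with trend, 1 coefficient per group). Where the authors used DESeq2 on counts, limma was used because only TPM were at hand. Calls needed a Benjamini-Hochberg adjusted p under 0.05 over 13968 genes and an absolute log2 change over 1. The fold changes printed as log2 understate those of rare genes. Intervals are at 95% and unadjusted. Members and lists were chosen with earlier results of these data known. Named were the 10 members, Btg4, up to 3 genes called lower and 3 higher in MII versus GV from each list (other demethylases; H3K4, H3K9, H3K27 and H3K36, H3K79 and H4K20 methyltransferases; CoREST partners) and the 5 genes most correlated with Kdm4a and with Kdm6b. In data simulated with independent normal noise for MII versus GV, 200 genes averaging over 10 scaled TPM were changed by 2 on the log2 scale. Of these, 195 were called correctly, and 8 unchanged genes were called. Changes in rarer genes and smaller changes were not simulated, so this rate does not cover most of the members. The changes were added to values already scaled, so the effect of the scaling was not simulated either.

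Alternatives were unscaled TPM, the mitochondrially encoded genes as reference for scaling, quantile normalization, 0.1 as pseudocount, a 5 TPM filter or none, the 4 libraries of the comparison alone, a replicate block, no trend, no minimum change, an adjusted p under 0.01, each library left out and, chosen after seeing the data, removal of length and GC trends by loess (span 0.3). Gene positions, transcript lengths and sequences came from GENCODE M21 on GRCm38.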

Additional observations from a re-analysis of the deposited data

How the results depend on the processing

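Of 474 values of single members under alternatives, 418 were counted as unchanged, 21 reversed and 35 moved, weakened or strengthened. In MII versus GV, unchanged meant the same direction and the same side of an adjusted p of 0.05. A turn in direction also counted as unchanged where neither fit had an adjusted p under 0.05, and the size limit played no part. In the other comparisons it meant a shift within the replicate spread. There, filters, the replicate block, the trend setting and leaving out another group's library cannot change a value, so 418 overstates the stability. Scaling to the mitochondrially encoded genes reversed 16. It gave MII versus GV values of −0.99 for Kdm1a, −1.90 for Kdm1b, −0.90 for Kdm2a, −1.71 for Kdm2b, −0.22 for Kdm3a, −0.59 for Kdm4a and −0.068 for Kdm6b, beside −1.72 for Kdm4b and −1.28 for Kdm5b, which were negative before, with 0 members called higher, 4 lower (Kdm1b, Kdm2b, Kdm4b and Kdm5b) and a median of −0.99. It gave Btg4tm versus Btg4wt values of 0.53 for Kdm1a, 0.57 for Kdm1b, 0.43 for Kdm5b and 0.68 for Kdm6b with a median of 0.43, and Btg4wt versus MII values of 0.046 for Kdm1a, 0.27 for Kdm2a, 0.15 for Kdm3a, 0.20 for Kdm5b and 0.41 for Kdm6b. By construction it moves all genes together, and over the whole table it left 7 higher and 11403 lower calls in MII versus GV beside 1752 and 3351 in the reported fit, 1145 and 3699 for TPM as deposited and 3102 and 2711 after quantile normalization. Removing length and GC trends reversed 5 values, with MII versus GV at −0.54 for Kdm1b and −0.15 for Kdm2a and Btg4tm versus Btg4wt at 0.11 for Kdm1b, 0.71 for Kdm5b and 0.13 for Kdm6b; the medians became 0.041 and −0.15. The cause was not tested. The MII versus GV median of 0.73 was 0.62 for TPM as deposited, 1.05 after quantile normalization, 0.96 with a pseudocount of 0.1, 0.57 without a filter, 1.13 with a filter at 5 TPM, where 5 members were left, and 0.60 to 0.86 when each library was left out; the Btg4tm versus Btg4wt median was −0.75 after quantile normalization. Without 1 library, 3 or 4 members were called higher, a lone library being assumed to vary like the other groups. Kdm2a lost its adjusted p under 0.05 without GV replicate 2 (0.0549) or MII replicate 1 (0.0764), and Kdm2b gained one without GV replicate 2 (0.0138), with quantile normalization (0.00796) and with a filter at 5 TPM (0.0471). Same-numbered libraries did not deviate together (correlations −0.054 to 0.055), and a replicate block left 4 members higher, 0 lower and the medians at 0.73 and −0.51. Precision rests on 2 libraries per group, and the depth behind TPM is unknown.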

Other observations

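Genes of histone methyltransferases and their subunits were measured in the same fit. They include methyltransferases of H3K79 and H4K20, marks that none of the described enzymes is said here to erase. In that fit, 12.5% of all genes were called higher and 24.0% lower in maturation. With mutant BTG4, 7.94% of all genes were past the lower and 18.1% past the higher limit. Of 6 H3K27 methyltransferases and core subunits tested, 4 rose in maturation (median log2 change 1.08) and none fell. Ezh2, the main catalytic subunit of Polycomb repressive complex 2, rose from 169.4 ± 9.08 (SD, n = 2) to 375.9 ± 6.70, Ezh1 from 20.4 ± 0.61 to 46.1 ± 6.57, and the histone-binding subunit Rbbp7 from 2418 ± 200.5 to 5867 ± 6.37, with adjusted p between 2.1e-05 and 0.00021 by limma; Suz12, outside the naming rule, was the fourth (1.04). In Btg4tm versus Btg4wt, Ezh1 alone of the 6 was past the lower limit (−1.48). Of 14 H3K4 methyltransferases and shared subunits, 4 rose and 1 fell (median 0.63). Dpy30 rose by 1.45, Kmt2c by 1.42, Kmt2d by 1.38 and Setd1a, outside the naming rule, by 1.06, while Ash2l, a core subunit of the same complexes, went from 17.6 ± 1.97 to 5.75 ± 0.98 (−1.47). With mutant BTG4, Kmt2c (−1.57), Kmt2d (−1.77), Setd1a (−1.39), Setd1b (−1.60) and Rbbp5 (−1.66) were past the lower limit and Ash2l (1.20) past the higher.

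Of 6 H3K9 methyltransferases, Ehmt1 rose from 25.7 ± 2.42 to 59.4 ± 0.29 and none fell (median 0.69), and Ehmt1 (−1.41), Setdb1 (−1.49) and Prdm2 (−1.50) were past the lower limit with mutant BTG4. Of 11 H3K36, H3K79 and H4K20 methyltransferases, Kmt5a (1.43) and Dot1l (1.28) rose and Smyd2 (−1.95) and Setmar (−1.55) fell (median 0.55), and with mutant BTG4 Ash1l was lower (−1.05) and Smyd2 higher (1.39). Of 10 CoREST partners of KDM1A, none rose and Gfi1b fell by 1.22 (median 0.21), and with mutant BTG4 Phf21a (−1.18), Zmym2 (−1.29) and Gse1 (−1.24) were lower and Gfi1b higher (1.25). All these directions are relative to the median of all genes; mitochondrial scaling shifts that median by −1.74 in maturation and to 0.88 with mutant BTG4. The limits for Btg4tm versus Btg4wt include an adjusted p under 0.05 from the same fit. Since this comparison chose the list, its values and calls are given as descriptions and nothing is inferred from them.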
